A study of Mus musculus with 12 samples.

Results

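The 10 genes described here mark the Purkinje and granule cells of the mouse cerebellum and were followed through RNA sequencing of 12 brains. They were taken by symbol from a table of 55385 genes, each symbol matched 1 row, and the rule for taking them used the symbols alone. There are 5 genes of Purkinje cells (Car8, Pcp2, Calb1, Itpr1 and Ppp1r17) and 5 of granule cells or their precursors (Cbln1, Cbln3, En2, Zic1 and Zic2). All 10 were among the 21393 genes with a mean FPKM (fragments per kilobase of transcript, relative to all mapped fragments) of at least 0.1, and they would also all pass that filter without the libraries C_O72 and MS_W95 described below.

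All mice were wild-type males of the C57BL/6J strain, bought at 8 weeks of age. The C_W mice received water, the C_O mice krill oil by gavage for 5 weeks (200 mg/kg daily), the MS_W mice water with CUMS (chronic unpredictable mild stress) for 4 weeks, and the MS_O mice krill oil with CUMS. Each group had 3 mice, drawn at random from a larger group, and each mouse gave 1 poly(A) library, named here by group and mouse number. The labels and methods describe the tissue as brain and whole brain, taken after perfusion with saline. The libraries held 50912906 to 75678721 estimated counts.

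The cerebellar cortex sends out its signals through Purkinje cells, which are large inhibitory neurons. Each receives synapses from a very large number of small excitatory granule cells. At these synapses glutamate also acts through inositol trisphosphate to release calcium inside the Purkinje cell, and cerebellins secreted by the granule cell axon help to form and keep the synapse. En2, Zic1 and Zic2 are transcription factors that pattern the cerebellum and act in the granule cell lineage, while Calb1, Itpr1, Cbln1, Zic1 and Zic2 are also made by neurons of other brain regions.

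The gene starts of Pcp2, Cbln3 and Zic1 are shown because these 3 of the 10 genes had an entry in the table of RefSeq gene starts used here (GRCm38.p6). Pcp2 and Cbln3 are genes with low values outside C_O72 and MS_W95, whereas Zic1 was measured at 2.59 or more in every library. Coordinates are those of GRCm38 (mm10). Each sequence is the longest stretch of the 250 bases before the gene start that lies outside annotated exons, 5′ to 3′ on the strand of the gene, with CG pairs in capitals. The stretches are chr8:3625607-3625778 for Pcp2, chr14:55884393-55884506 for Cbln3 and chr9:91365811-91366018 for Zic1, all on the minus strand.
Pcp2: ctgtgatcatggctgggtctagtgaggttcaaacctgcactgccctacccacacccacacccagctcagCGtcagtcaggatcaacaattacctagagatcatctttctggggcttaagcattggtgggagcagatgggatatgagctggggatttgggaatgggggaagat
Cbln3: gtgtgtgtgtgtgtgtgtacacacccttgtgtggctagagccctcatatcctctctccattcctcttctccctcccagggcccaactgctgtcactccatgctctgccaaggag
Zic1: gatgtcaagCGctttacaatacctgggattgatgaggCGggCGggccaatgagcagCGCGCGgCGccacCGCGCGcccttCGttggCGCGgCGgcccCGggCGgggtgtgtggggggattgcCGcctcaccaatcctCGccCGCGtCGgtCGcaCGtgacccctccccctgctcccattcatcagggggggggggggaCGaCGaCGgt
In the 250 bases before the start, Zic1 had 27 CG pairs, which is more than 91.4% of the upstream regions of all genes had. Pcp2 had 1 and Cbln3 had 2, with a median of 6 over all regions. The letters AGGTCA, a core recognized by nuclear receptors such as Rora, were searched on both strands. They occurred once before Pcp2, 6 bases from the start. They are shown in capitals within the window chr8:3625548-3625577, which lies outside the stretch of Pcp2 printed above.
Pcp2 start: cttttaaaaggccttctcAGGTCAgagacc
These letters were present in 14.0% of 32536 upstream regions and were not in the 250 bases of Cbln3 or Zic1. CAGCTG, an E-box core, was in 13.1% of the regions and in none of these 3. A match of letters is a description and was not tested for binding.

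The libraries C_O72 and MS_W95, from different groups, stood apart from the other 10. Over 21273 genes outside every list used here, log2(FPKM + 1) correlated between these libraries with a Pearson's r of 0.97 across genes, which are not independent replicates. Either one correlated with the other 10 at 0.924 to 0.942, and the other 10 among themselves at 0.96 to 0.986. Of the 10 cerebellar genes, 9 were higher in both C_O72 and MS_W95 than in each of the other 10 libraries, whereas 16.3% of all tested genes were. The fits and medians below are therefore also given for the other 10.

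Cbln3 is made by granule cells and is secreted together with Cbln1. Its FPKM was 0.15, 0.146 and 0.168 in C_W1, C_W64 and C_W70, 0.121 and 0.0888 in C_O15 and C_O30, 0.183 and 0.196 in MS_W31 and MS_W75, and 0.0966, 0.138 and 0.196 in MS_O13, MS_O46 and MS_O78. It was 60.9 in C_O72 and 222 in MS_W95, which is 311 and 1133 times the highest of the other libraries. The estimated counts behind these values were 28 to 70 in the other 10 libraries, 16967 in C_O72 and 75140 in MS_W95. Cbln3 was thus close to the limit of measurement in 10 of 12 libraries of labelled whole brain.

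Pcp2 encodes a regulator of G protein signaling that is found almost only in Purkinje cells and retinal bipolar cells. Its FPKM was 0.1, 0.0622 and 0.096 in C_W1, C_W64 and C_W70, 0.164 and 0.193 in C_O15 and C_O30, 0.121 and 0.144 in MS_W31 and MS_W75, and 0.1, 0.066 and 0.212 in MS_O13, MS_O46 and MS_O78. It was 31.3 in C_O72 and 114 in MS_W95, from 3275 and 14528 estimated counts, against 9 to 27 elsewhere. An exon of Pet100 on the other strand overlaps Pcp2, and whether strand was used in counting is not given in the sources used here.

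En2, a homeobox gene of the midbrain and hindbrain border, had the lowest level of the 10 genes in both C_O72 (6.53) and MS_W95 (23.5). In the other 10 libraries its FPKM ranged from 0.045 in MS_O13 to 0.262 in MS_O46, with a median of 0.139, and the groups overlapped.

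Car8 encodes a carbonic anhydrase-related protein without enzyme activity that binds the inositol trisphosphate receptor. Its FPKM was 2.22, 1.94 and 2.16 in C_W1, C_W64 and C_W70, 2.4 and 1.63 in C_O15 and C_O30, 1.75 and 1.55 in MS_W31 and MS_W75, and 2.09, 1.46 and 1.93 in MS_O13, MS_O46 and MS_O78. It reached 48.0 in C_O72 and 222 in MS_W95. Unlike Pcp2 and Cbln3, Car8 was measured well above zero in every library, with at least 348 estimated counts. Over the other 10 libraries its highest value was 1.65 times its lowest, the smallest such range of the 10 genes.

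Ppp1r17, which encodes a substrate of cGMP-dependent protein kinase that inhibits protein phosphatases, was 19.9 in C_O72 and 94.8 in MS_W95. It was 0.769 and 0.824 in C_W1 and C_W64 and was listed at 0.0001, with 0 estimated counts, in C_W70. Its FPKM was 0.0809 and 0.413 in C_O15 and C_O30, 1.86 and 0.884 in MS_W31 and MS_W75, and 0.707, 2.68 and 1.2 in MS_O13, MS_O46 and MS_O78. Without C_O72 and MS_W95, all MS_O values were above the C_O values, as for 18.9% of tested genes.

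Calb1 encodes the calcium buffer calbindin, and Itpr1 the inositol trisphosphate receptor that releases calcium from the endoplasmic reticulum. Calb1 was 19.7, 17.5 and 18.1 in C_W1, C_W64 and C_W70, 21.3, 22.7 and 33.6 in C_O15, C_O30 and C_O72, 25.4, 26.1 and 126 in MS_W31, MS_W75 and MS_W95, and 23.2, 7.84 and 13.2 in MS_O13, MS_O46 and MS_O78. Its lowest values were those of MS_O46 and MS_O78. Itpr1 was 24.7, 31 and 30.5 in C_W1, C_W64 and C_W70, 34.9, 25.8 and 23.1 in C_O15, C_O30 and C_O72, 19.6, 23.5 and 87.1 in MS_W31, MS_W75 and MS_W95, and 32.4, 14.6 and 15.1 in MS_O13, MS_O46 and MS_O78. Itpr1 was the 1 gene of the 10 whose value in C_O72 lay within the range of the other 10 libraries. Exons of Gm44040 and Gm44101 on the other strand overlap Itpr1.

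Cbln1, a secreted synapse organizer of granule cells, was 5.2, 5.04 and 3.95 in C_W1, C_W64 and C_W70, 0.854 and 3.83 in C_O15 and C_O30, 6.54 and 1.84 in MS_W31 and MS_W75, and 3.81, 13.8 and 13.9 in MS_O13, MS_O46 and MS_O78. It was 66.4 in C_O72 and 169 in MS_W95. Cbln1 varied most of the genes with a value above 0.0001 in every library, by 16.3 times over the other 10 libraries.

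Zic1 and Zic2 encode zinc finger factors of granule cell precursors that are also expressed in the septum and the olfactory bulb. Zic1 was 3.67, 3.33 and 4.15 in C_W1, C_W64 and C_W70, 3.12 and 2.59 in C_O15 and C_O30, 10.8 and 6.14 in MS_W31 and MS_W75, and 4.71, 11.5 and 10 in MS_O13, MS_O46 and MS_O78. Both of these MS_W values were above all C_W values, as for 25.2% of tested genes in the 10 libraries. All MS_O values were above both of these C_O values, as for 18.9%. C_O72 (31.2) and MS_W95 (74.0) were above all of these values. Zic2 was 4.01, 3.11 and 4.33 in C_W1, C_W64 and C_W70, 3.08 and 3.3 in C_O15 and C_O30, 6.66 and 3.33 in MS_W31 and MS_W75, and 4.36, 6.54 and 6.07 in MS_O13, MS_O46 and MS_O78, with 23.5 in C_O72 and 54.9 in MS_W95. An exon of Zic4 on the other strand overlaps Zic1.

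**Figure D1:**
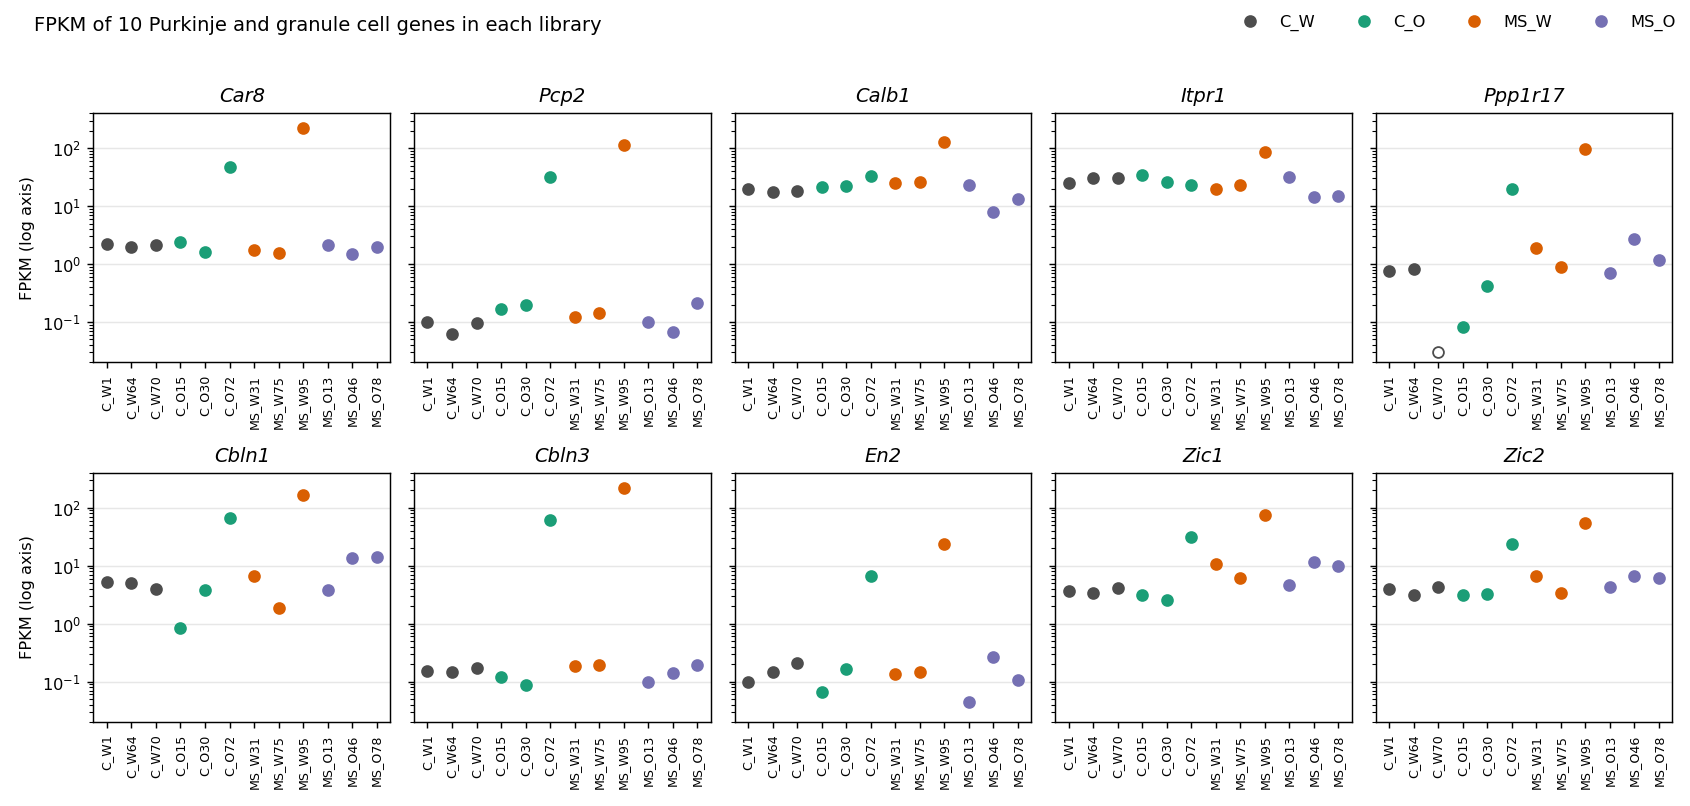
FPKM (log axis) of each of the 10 genes in each of the 12 libraries, with 1 point per mouse colored by group. C_O72 and MS_W95 are the highest points for all genes except Itpr1 in C_O72, and the open circle of Ppp1r17 in C_W70 stands for a value listed at 0.0001, drawn at the lower edge.

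Because FPKM is scaled to transcript length, the levels of the genes could be put in order. In the other 10 libraries the order of the medians was Itpr1 (25.3), Calb1 (20.5), Cbln1 (4.5), Zic1 (4.43), Zic2 (4.17), Car8 (1.94), Ppp1r17 (0.797), Cbln3 (0.148), En2 (0.139) and Pcp2 (0.111). Neighbors in this order overlapped in range, except that the lowest Zic2 value (3.08) was above the highest Car8 value (2.4). The order in C_O72 was Cbln1, Cbln3, Car8, Calb1, Pcp2, Zic1, Zic2, Itpr1, Ppp1r17 and En2. In MS_W95 it was led by Cbln3 and Car8, both at 222, then Cbln1, Calb1, Pcp2, Ppp1r17, Itpr1, Zic1, Zic2 and En2. Over the 10 genes Spearman's rho was 0.85 between C_O72 and MS_W95 and 0.15 between C_O72 and the medians of the other libraries, as a description.

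All 10 genes were higher in MS_W95 than in C_O72. The ratio of FPKM was 4.78 for Ppp1r17, 4.63 for Car8, 3.78 for Itpr1, 3.75 for Calb1 and 3.65 for Pcp2 among the Purkinje cell genes. It was 3.64 for Cbln3, 3.6 for En2, 2.54 for Cbln1, 2.37 for Zic1 and 2.34 for Zic2 among the granule cell genes. The median over the 10 genes was 3.65, against 1.05 over 20126 tested genes above 0.0001 in both libraries. With 1 library on each side these ratios have no replicate error. The 8 Hox genes of the hindbrain list, which mark the medulla and the caudal pons, went the other way, with ratios of 0.197 to 0.632. Of all 13 hindbrain genes, 9 were lower in MS_W95 than in C_O72 and 4 were higher. The 4 were Tph2 (6.55), Slc6a2 (2.64), Dbh (1.62) and Gata3 (1.36). Hoxc4, for instance, was 4.51 in C_O72 and 1.82 in MS_W95 and was listed at 0.0001 in the other 10.

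**Figure D2:**
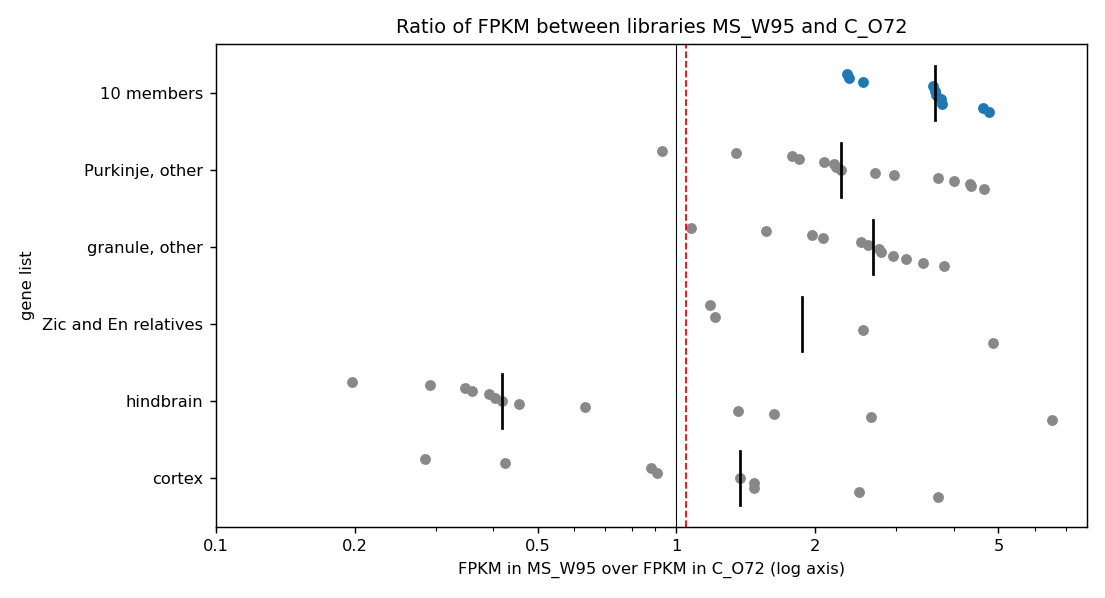
FPKM in MS_W95 divided by FPKM in C_O72 (log axis), with 1 point per gene, a black bar at the median of each list and a dashed red line at the median of all tested genes (1.05). The 10 genes lie between 2.34 and 4.78, and 9 of 13 hindbrain genes lie below 1.

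Other markers of the same cells were high in the same libraries. Of 15 further Purkinje cell genes, 12 were higher in both C_O72 and MS_W95 than in the other 10 libraries, as were 6 of 12 further granule cell genes and 5 of 7 tested genes of other cerebellar cells. Some of these genes reached the mean FPKM of 0.1 only through these libraries, which fixes their place above the rest. Of the genes that reach it on the other 10 libraries alone, 10 of 13 Purkinje cell genes, 3 of 9 granule cell genes and 2 of 4 genes of other cerebellar cells were higher in both, with 15.6% of all such genes. Slc1a6, the Purkinje cell glutamate transporter, was 24.6 in C_O72, 56.0 in MS_W95 and 3.12 to 5.24 elsewhere. The granule cell GABA receptor subunit Gabra6 was 23.9 in C_O72, 91.3 in MS_W95 and 0.0001 to 0.129 elsewhere. The cadherin Fat2 was 6.93, 18.0 and 0.012 to 0.114. Gabra6 and Fat2 had a mean FPKM of 0.025 and 0.038 over the other 10 libraries, so their place above the rest was fixed by the filter. Not all granule cell genes were high in both. Gabrd, a GABA receptor subunit chosen here after its values were seen, was 12.8 in C_O72, 40.4 in MS_W95 and 20.6 to 28.9 elsewhere.

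Genes that act with the 10 were also counted. Of 7 cerebellin relatives and partners, 1 was above the other 10 libraries in both C_O72 and MS_W95 and 2 were below. Over all tested genes, 16.3% were above in both and 11.7% were below in both. Of 12 genes of the glutamate and inositol trisphosphate pathway, 4 were above in both and 1 was below. Of the 4 further Zic and En genes, 3 were above in both. Of the 3 that pass the filter on the other 10 libraries alone, 2 were above in both. Zic4, which overlaps Zic1 on the other strand, was 1.65 in C_O72, 1.99 in MS_W95 and 0.101 to 0.495 elsewhere, and Zic5, which lies 9757 bases from Zic2, was 3.35, 8.48 and 0.565 to 1.1.

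Markers of other regions also differed in these libraries. All 13 hindbrain genes were above the other 10 libraries in both, with a summed FPKM of 39.8 in C_O72, 39.6 in MS_W95 and 0.298 to 0.524 elsewhere, and 7 of the 13 were listed at 0.0001 in all of the other 10. Only 2 of the 13 reach a mean FPKM of 0.1 on the other 10 libraries alone, so the place of the other 11 above the rest was fixed by the filter. Of 10 cortex genes, 8 were below the other 10 libraries in both, with sums of 158, 116 and 492 to 1540. Of 8 striatum genes 3 were below in both, as were 3 of 8 olfactory bulb genes and 11.7% of all tested genes. The lists of 5 tested midbrain, 8 thalamus and 9 general brain genes had 2, 3 and 2 genes above in both, and the general brain list also had 2 below in both (Syt1 and Slc1a2, named after their values were seen). In bulk RNA, fewer cells of a type and less RNA per cell cannot be told apart.

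**Figure D3:**
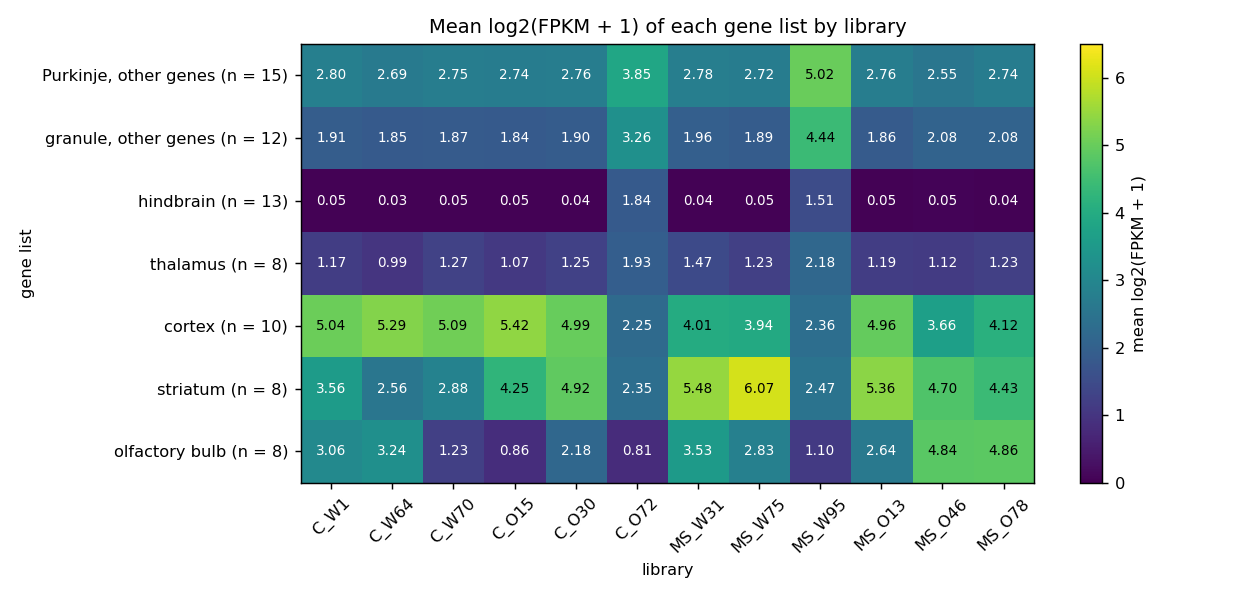
Mean log2(FPKM + 1) of 7 gene lists (rows, with the number of genes) in each library (columns), printed in each cell and colored by the scale at the right. C_O72 and MS_W95 have the highest Purkinje, granule and hindbrain means and the lowest cortex and striatum means, and MS_O46 and MS_O78 the highest olfactory bulb means.

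The 5 tested genes whose log2(FPKM + 1) was most like that of Car8 over the 12 libraries were Irx5, Skor2, Gabra6, Fat2 and Hes3, with Pearson's r from 0.994 to 0.9978. Those most like Cbln3 were Dao, Gabra6, Gata3, Fat2 and Irx3, with r from 0.9975 to 0.9997. These correlations rest on the same pair of libraries and are a description. Over the other 10 libraries r was between -0.29 and 0.42 for the Car8 set and between 0.27 and 0.63 for the Cbln3 set, apart from Skor2 and Gata3, which were listed at 0.0001 there.

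The comparisons of groups asked whether CUMS or krill oil changed these genes. A single limma fit of log2(FPKM + 1) over all 12 libraries gave differences (log2FC, second minus first group, with SE) and p adjusted by Benjamini-Hochberg over all tested genes. A differentially expressed gene (DEG) was called by the criteria of the study, for which the unadjusted p lies under 0.05 and the log2 ratio of group mean FPKM is above 1 or below -1. Between C_W and MS_W, none of the 10 genes was a DEG, where 4.59% of all tested genes were, although all 10 fitted differences were positive. None had an unadjusted p under 0.05, and the adjusted p of the 10 genes ran from 0.481 to 0.849. The median log2FC was 1.68, against 0.06 over all tested genes, of which 10.5% had an unadjusted p under 0.05. On the estimated counts edgeR called all of the 10 but Itpr1 and Cbln1, and 4.56% of tested genes, with adjusted p of at least 0.446 for the 10 genes. DESeq2 called Calb1, Zic1 and Zic2, and 5.11% of the 21393 genes, with adjusted p of at least 0.0736, and gave no p for Car8, Pcp2, Ppp1r17, Cbln1, Cbln3 and En2. Without MS_W75, limma called 4 of the 10 (Calb1, Ppp1r17, Zic1 and Zic2) and 5.36% of tested genes.

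MS_W95 set most of the mean and of the spread of the MS_W group. Cbln3 was 0.155 ± 0.0118 in C_W and 74.1 ± 128 in MS_W (SD, n = 3), with a log2FC of 2.56 (SE 1.97). Car8 was 2.1 ± 0.148 and 75.1 ± 127, with a log2FC of 1.9 (SE 1.57). Without C_O72 and MS_W95 the log2FC of Cbln3 was 0.04 and that of Car8 -0.23, and the median over the 10 genes was 0.05. Of the 10 genes, 5 (Pcp2, Calb1, Ppp1r17, Cbln3 and Zic1) were higher in all MS_W than in all C_W libraries, with or without MS_W95. Over all tested genes this was so for 16.3% with the 12 libraries and 25.2% with the 10. In the 10 libraries Car8 and Itpr1 were lower in both MS_W than in all C_W libraries, as were 13.7% of tested genes.

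Between C_O and MS_O no gene of the 10 was a DEG, with 3.57% of all tested genes called. Of the 10 log2FC, 8 were negative, with a median of -0.68 against 0.03 over all tested genes, and no gene had an unadjusted p under 0.05, as 8.88% of tested genes had. Without C_O72 and MS_W95 the median was 0.04, against 0.05 over all tested genes. Cbln3 was 20.4 ± 35.1 in C_O and 0.144 ± 0.0499 in MS_O, with a log2FC of -1.89 (SE 1.97), which was 0.049 in the 10 libraries. Between C_W and C_O none was called either, with 1.76% of tested genes called and a median log2FC of 0.8 against 0.0017 over all tested genes. None of the 10 had an unadjusted p under 0.05 there, with 12 or with 10 libraries, as 3.55% and 4.06% of tested genes had. In the 10 libraries the median was -0.06, against -0.014 over all tested genes. Pcp2 and Calb1 were higher in all C_O than in all C_W libraries, as were 4.08% of tested genes with 12 libraries and 8.32% with 10. In the 10 libraries Cbln1, Cbln3 and Zic1 were lower in both C_O than in all C_W libraries, as were 11.0% of tested genes. These comparisons share their groups with the others, so their values stand side by side and are not independent.

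Between MS_W and MS_O, Calb1 alone was called, where 2.81% of all tested genes were. It was 59.2 ± 58.0 in MS_W and 14.7 ± 7.81 in MS_O, with a log2FC of -1.64 (SE 0.55), an unadjusted p of 0.0137 and an adjusted p of 0.788 in limma. The median log2FC of the 10 genes was -1.56, against -0.016 over all tested genes, and without C_O72 and MS_W95 it was 0.0015, against -0.000505 over all. All 3 MS_O values of Calb1 were below all MS_W values, as for 7.66% of tested genes with 12 libraries and 13% with 10. Without C_O72 and MS_W95 the log2FC was -0.89 (SE 0.33, unadjusted p = 0.0275 and adjusted p = 0.511 in limma), and the log2 ratio of -0.8 no longer met the criteria. Leaving out MS_W95 alone (log2FC of -0.89, unadjusted p = 0.0305 in limma) or MS_O46 alone (-1.28, unadjusted p = 0.0599 in limma) also ended the call of Calb1. With the 10 libraries no gene of the 10 was called between MS_W and MS_O, with 3.36% of tested genes called, or between C_W and C_O, with 1.64% called.

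The interaction asks whether the difference with CUMS was the same with and without krill oil. Of the 10 genes 1 was called, Calb1, and 4.74% of tested genes were. The median over the 10 genes was -2.21 with 12 libraries and 0.09 with 10, against -0.017 and 0.013 over all tested genes. Its log2FC with CUMS was 1.21 on water and -0.86 on krill oil, and the difference was -2.07 (SE 0.78, unadjusted p = 0.0235 and adjusted p = 0.665 in limma). Leaving out C_O72 alone (-1.88, unadjusted p = 0.0529 in limma) or MS_O46 alone (-1.72, unadjusted p = 0.0598 in limma) ended this call. Without C_O72 and MS_W95 it was -1.13 (SE 0.47, adjusted p = 0.649), and Cbln1 was also called (2.07, SE 0.87, adjusted p = 0.651), with 4.13% of tested genes called.

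**Figure D4:**
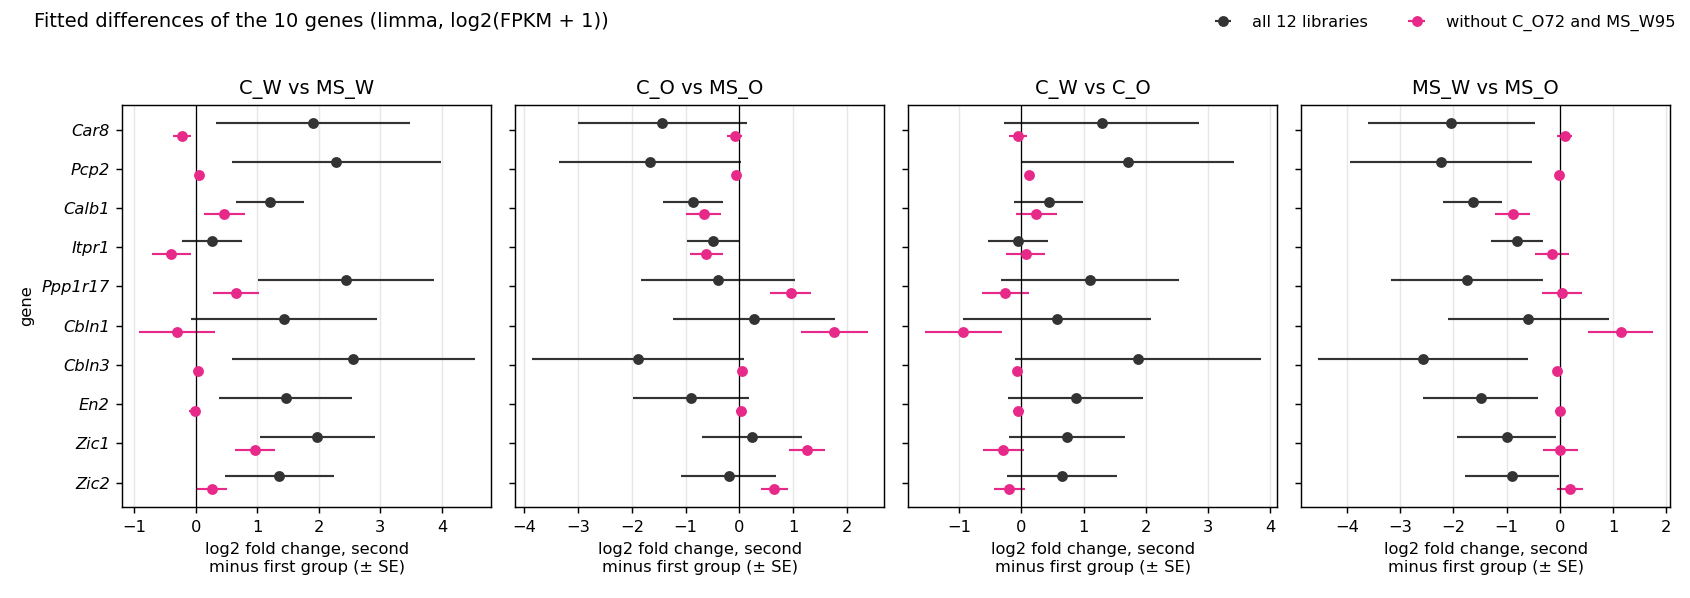
Fitted log2FC of the 10 genes with SE (bars) in 4 comparisons, with all 12 libraries in black and without C_O72 and MS_W95 in pink. Many black estimates have wide bars, such as 2.56 for Cbln3 between C_W and MS_W. Some black ones lie near 0, such as 0.24 for Zic1 between C_O and MS_O. Most pink ones lie close to 0, with Zic1 (0.96 and 1.26) and Cbln1 (1.77 between C_O and MS_O) among the exceptions.

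With the 10 libraries, 3 of the 10 genes were called between C_O and MS_O, where 4.28% of tested genes were. Zic1 was 2.59 to 3.12 in the 2 C_O libraries and 4.71 to 11.5 in the 3 MS_O libraries, with a log2FC of 1.26 (SE 0.33, unadjusted p = 0.00466 and adjusted p = 0.335 in limma). Cbln1 had a log2FC of 1.77 (SE 0.62, adjusted p = 0.335) and Ppp1r17 of 0.96 (SE 0.38, adjusted p = 0.345). Zic2 had a log2FC of 0.65 with an unadjusted p of 0.0279 and an adjusted p of 0.343, but a log2 ratio of 0.83. Ppp1r17, Zic1 and Zic2 were higher in every MS_O than in either C_O library, as were 18.9% of tested genes. Between C_W and MS_W, Zic1 alone was called, where 5.81% of tested genes were, with a log2FC of 0.96 (SE 0.33, unadjusted p = 0.0185 and adjusted p = 0.227 in limma). No gene of the 10 had an adjusted p under 0.05 in limma in any of the 5 comparisons, with 12 or with 10 libraries. With 12 libraries an unadjusted p under 0.05 was reached by 1 gene for MS_W against MS_O, with 6.09% of tested genes, and by 1 for the interaction, with 7.23%. With 10 libraries it was reached by 1 gene for C_W against MS_W (15.4% of tested genes), 4 for C_O against MS_O (13.6%), 1 for MS_W against MS_O (8.54%) and 2 for the interaction (7.51%).

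Region markers moved between the same groups. Between C_O and MS_O, all 8 olfactory bulb genes were called higher in the 10 libraries, where 4.28% of tested genes were called. Their adjusted p was 0.335 or more in limma. Their summed FPKM was 8.72 to 36.4 in C_O and 51.6 to 303 in MS_O. Between C_W and MS_W none of the 8 was called, with sums of 12.8 to 85.4 and 61.7 to 109. There all 8 striatum genes were called higher (93.7 to 180 in C_W and 687 to 984 in MS_W) and 7 of 10 cortex genes lower (1340 to 1540 and 570 to 595). In that comparison 5.81% of tested genes were called. All 8 striatum genes and 2 of the 10 cortex genes had an adjusted p under 0.05 in limma. No gene of these 3 lists was at 0.0001 in all 10 libraries. The part of these regions in the values of Zic1, Cbln1 and Ppp1r17 was not tested by a model of the groups.

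Across the 10 libraries the genes were set against the mean log2(FPKM + 1) of the olfactory bulb, striatum and cortex lists, a set of 30 relations chosen after the data had been seen. The permutations moved values over all 10 libraries without regard to group. Their p therefore does not separate differences between groups from a relation within groups. With the olfactory bulb list, Pearson's r was 0.9 for Ppp1r17 (permutation p = 0.00097, adjusted 0.0094, with Spearman's rho of 0.92 and its permutation p of 0.00063, adjusted 0.019). It was 0.87 for Cbln1 (permutation p = 0.0022, adjusted 0.011, with rho of 0.87 and its permutation p of 0.002, adjusted 0.03). Itpr1 went the other way, with r of -0.87 (permutation p = 0.0012, adjusted 0.0094, rho of -0.79 with a permutation p of 0.0087, adjusted 0.043). For Zic1 r was 0.77 (permutation p = 0.0096, adjusted 0.041) and rho 0.71 (permutation p = 0.027, adjusted 0.089). Leaving out the 2 libraries farthest from the median of the list, C_O15 and MS_O78, gave r of 0.97, 0.72, -0.78 and 0.69 for Ppp1r17, Cbln1, Itpr1 and Zic1.

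With the cortex list, r was -0.91 for Zic1 (permutation p = 0.0011, adjusted 0.0094, rho of -0.83 with a permutation p of 0.0048, adjusted 0.034) and 0.88 for Itpr1 (permutation p = 0.001, adjusted 0.0094, rho of 0.82 with a permutation p of 0.0057, adjusted 0.034). It was -0.82 for Ppp1r17 (permutation p = 0.0022, adjusted 0.011, rho of -0.78 with a permutation p of 0.01, adjusted 0.044). Without MS_O46 and MS_W75, the 2 farthest from the median, r was -0.94, 0.9 and -0.78 for Zic1, Itpr1 and Ppp1r17. For Car8 r was 0.77 (permutation p = 0.014, adjusted 0.052) and rho 0.83 (permutation p = 0.0047, adjusted 0.034), and r was 0.53 without the same libraries. None of the 10 relations with the striatum list had an adjusted p under 0.05. The libraries come from 4 groups, and after each group mean was taken out r with the olfactory bulb list was 0.86 for Ppp1r17, 0.82 for Cbln1, -0.82 for Itpr1 and 0.52 for Zic1. With the cortex list it was then -0.73 for Zic1, 0.92 for Itpr1, -0.61 for Ppp1r17 and 0.7 for Car8. All values are FPKM of the same libraries, so they share scaling and depth.

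**Figure D5:**
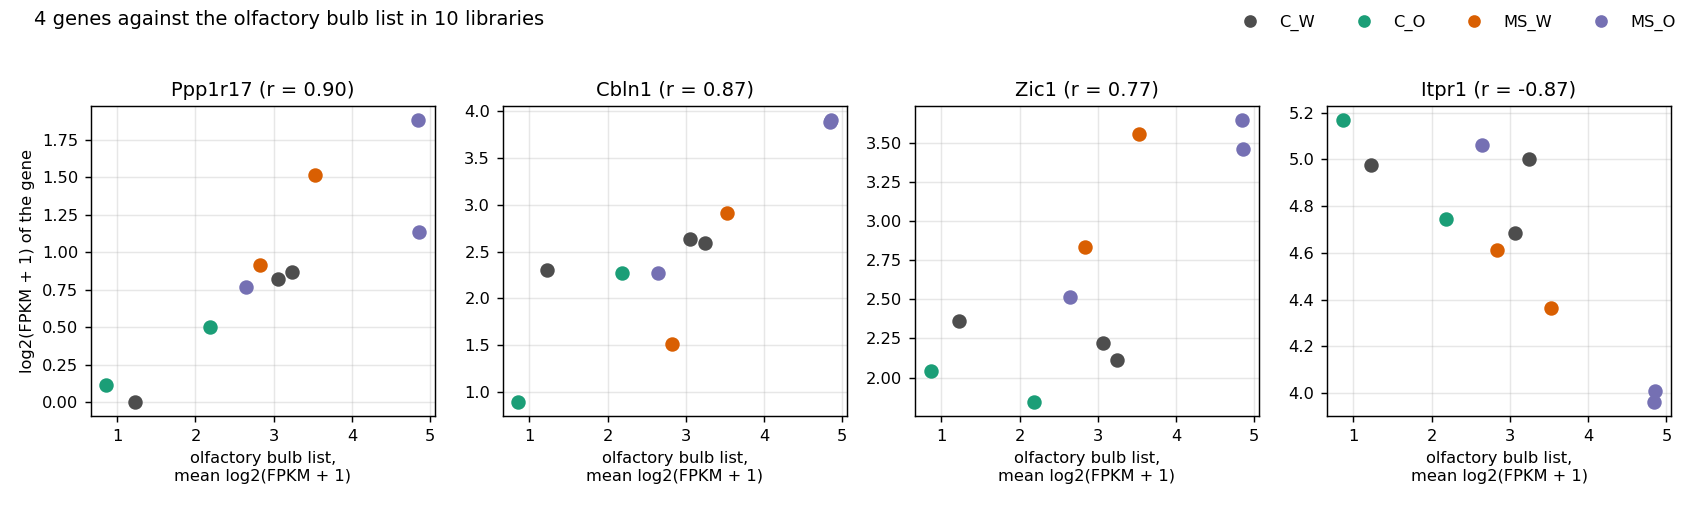
log2(FPKM + 1) of Ppp1r17, Cbln1, Zic1 and Itpr1 (vertical axes) against the mean log2(FPKM + 1) of 8 olfactory bulb genes (horizontal axes) in the 10 libraries other than C_O72 and MS_W95, with 1 point per mouse colored by group. Ppp1r17, Cbln1 and Zic1 were highest and Itpr1 was lowest in libraries with a high olfactory bulb mean, such as MS_O46 and MS_O78.

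In the lists of other cerebellar cells, partners and relatives, few genes met the DEG criteria with 12 libraries. Between C_W and MS_W, Dner and Rgs8 of the 15 further Purkinje cell genes were called higher (log2FC of 1.15 and 1.57, adjusted p = 0.354 and 0.401 in limma). Cbln2, a relative of Cbln1 made outside the cerebellum, was called lower (-1.0, SE 0.27, adjusted p = 0.285). No further granule cell, Zic or En gene was called in that comparison with 12 libraries. Between C_O and MS_O, Reln of the granule cell list (0.79, adjusted p = 0.504) and Eomes (2.58, adjusted p = 0.479), which is also on the olfactory bulb list, were called higher, and between MS_W and MS_O Rgs8 was called lower (-1.55, adjusted p = 0.79). Of these calls, those of Cbln2 (-0.89, adjusted p = 0.146) and Reln (0.77, adjusted p = 0.351) were also made in the 10 libraries without C_O72 and MS_W95, as was that of Eomes (2.82, adjusted p = 0.335). For the interaction Rgs8 (-2.14, adjusted p = 0.665) and Cbln2 (1.3, adjusted p = 0.652) were called with 12 libraries, and both were called with 10 (-1.02, adjusted p = 0.472, and 0.93, adjusted p = 0.584).

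Further genes of these lists were called with the 10 libraries alone. Between C_W and MS_W, the LIM homeobox genes Lhx1 and Lhx5 of the Purkinje cell list were called higher, and Lhx5 had an adjusted p of 0.0334 in limma. Its FPKM was 0.0816, 0.0266 and 0.0165 in the C_W libraries and 0.414 and 0.697 in MS_W31 and MS_W75, with a log2FC of 0.57 (SE 0.0941). Lhx1 was 0.0234 or less in C_W and 0.115 and 0.179 in MS_W31 and MS_W75 (log2FC of 0.19, adjusted p = 0.133). The mean FPKM of Lhx1 over the 10 libraries was 0.0516, so it passed the filter only through C_O72 and MS_W95. Mab21l1 of the granule cell list was also called higher (0.59, adjusted p = 0.0746). Pvalb, the calcium buffer parvalbumin, was called lower (-1.87, adjusted p = 0.178), as was Rora (-1.17, adjusted p = 0.322), a nuclear receptor gene that is also on the thalamus list. Between C_O and MS_O, Pax6 of the granule cell list was called higher (0.92, adjusted p = 0.335). Between MS_W and MS_O, Lhx1 (-0.12, adjusted p = 0.558) and Lhx5 (-0.42, adjusted p = 0.201) were called lower. The interaction was called for Lhx5 (-0.41, adjusted p = 0.5) and Mab21l1 (-0.54, adjusted p = 0.496).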

How the data were processed

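Total RNA of 12 brains, 3 per group, was sequenced as poly(A) libraries that keep strand. Per the labels the authors used cutadapt 1.9, HISAT2 2.0.4, StringTie 1.3.4d, edgeR and DESeq2 on the mm10 build, and per the methods Ballgown. The deposited FPKM values are relative to length and mapped fragments and are listed at 0.0001 where a gene has no estimate. The deposited estimated counts, also made by the authors, come from coverage, were rounded and are not scaled between libraries. FPKM and estimated counts of all libraries stand in 1 table.

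The 21393 genes whose FPKM averaged 0.1 or more were fitted on the log2(FPKM + 1) scale by limma 3.58.1 under R 4.3.3 (4 group means, then eBayes with a trend), with Benjamini-Hochberg adjustment over all of them. Differences on this scale understate the change of low genes. The ratio of group mean FPKM served the DEG criteria. Genes named are the 10 genes, list genes past the criteria, list genes chosen for their roles (Slc1a6, Gabra6, Fat2, Zic4, Zic5 and Hoxc4) and the 5 genes most like Car8 and Cbln3. Some list genes that met this rule are not reported here by name. The 10 genes and all lists were chosen with earlier results of these data known. With 3 mice against 3 an exact permutation test cannot go below p = 0.1, so none was used for single genes. Permutation tests of correlations used 100000 resamples and were two-sided. Alternatives were a pseudocount of 0.1, no filter, a mean FPKM of at least 1, median centring, quantile normalization, edgeR 4.0.16, DESeq2 1.42.0, a linear model with a library size covariate, only the groups compared, 10 libraries and leaving out each library. The tests of single genes were checked on simulated data with a spread fixed alike for all genes and no libraries like C_O72 and MS_W95. That check does not cover the spread of these data or the permutation tests. Exons are those of GENCODE M21, in which all 10 genes have the coordinates of the table. Nothing states that the mice of a group were handled apart, so p measures only the spread between these mice. Behavior and lipid data were not analysed here.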

Additional observations from a re-analysis of the deposited data

Results flagged for a closer look

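The difference between the CUMS effects with and without krill oil met an unadjusted p under 0.05 for 1 of the 10 genes in limma, Calb1. The interaction was -2.07 on the log2(FPKM + 1) scale (SE 0.78, unadjusted p = 0.0235 and adjusted p = 0.665). Calb1 was higher in all 3 MS_W than in all 3 C_W libraries, and among the krill oil groups 2 of 3 MS_O values (7.84 and 13.2) were below every C_O value. Without C_O72 and MS_W95 it was -1.13, with an adjusted p of 0.649. In the 10 libraries, r of Calb1 with the cortex list was 0.38 as it stood and 0.88 after each group mean was taken out, and its part in the interaction was not tested. Each group held 3 mice, and no separate test for single outlying libraries within a group was run.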

How the results depend on the processing

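No paired analysis was possible because every mouse number occurs once, so that no numbers are shared between groups. Of 490 fits of single genes under the alternatives other than leaving out 1 library, 410 kept both the sign and the side of the DEG criteria. DESeq2 fits without a p were counted here as not called, so for them only the sign was compared. Median centring, quantile normalization, no filter and a mean FPKM of at least 1 changed neither sign nor call of any of the 10 genes. Where a call or sign changed, the cause was not tested, except that edgeR and DESeq2 fit the counts with no added FPKM, so their differences of low genes are larger by construction. No gene of the 10 had an adjusted p under 0.05 in edgeR or DESeq2, the smallest being 0.446 in edgeR and 0.0736 in DESeq2 (both between C_W and MS_W), where DESeq2 gave none for 6 of the 10. edgeR on the estimated counts called 8 of the 10 genes between C_W and MS_W (4.56% of all tested genes), 2 of the 10 genes between C_O and MS_O (3.28%), 2 of the 10 genes between C_W and C_O (2.38%), 5 of the 10 genes between MS_W and MS_O (2.65%) and 8 of the 10 genes for the interaction (5.54%). Its median log2FC was 4.27 between C_W and MS_W, 2.63 between C_W and C_O, -3.40 between MS_W and MS_O and -6.33 for the interaction. DESeq2 on the estimated counts called 3 of the 10 genes between C_W and MS_W (5.11% of all tested genes), 2 of the 10 genes between MS_W and MS_O (3.13%) and 3 of the 10 genes for the interaction (6.31%). Its median log2FC was 4.26 between C_W and MS_W, 2.63 between C_W and C_O, -3.40 between MS_W and MS_O and -6.34 for the interaction. The linear model with the summed-expression covariate called 0 of the 10 genes between MS_W and MS_O (2.34% of all tested genes). It also called 0 of the 10 genes for the interaction (3.94%). The median log2FC was -0.91 between C_W and MS_W, whereas it was -2.78 between C_O and MS_O. A fit of only the groups compared called 0 of the 10 genes between MS_W and MS_O (2.43% of all tested genes). The 10 libraries without C_O72 and MS_W95 called 1 of the 10 genes between C_W and MS_W, 3 of the 10 genes between C_O and MS_O, 0 of the 10 genes between MS_W and MS_O and 2 of the 10 genes for the interaction. The median log2FC was 0.092 for the interaction.

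In the 10 libraries the sign turned to -0.23 for Car8, -0.40 for Itpr1, -0.30 for Cbln1 and -0.014 for En2 between C_W and MS_W. It turned to 0.96 for Ppp1r17, 0.049 for Cbln3, 0.028 for En2 and 0.65 for Zic2 between C_O and MS_O. It turned to -0.053 for Car8, 0.068 for Itpr1, -0.26 for Ppp1r17, -0.93 for Cbln1, -0.064 for Cbln3, -0.048 for En2, -0.29 for Zic1 and -0.19 for Zic2 between C_W and C_O. It turned to 0.089 for Car8, 0.046 for Ppp1r17, 1.14 for Cbln1, 0.0092 for Zic1 and 0.19 for Zic2 between MS_W and MS_O. It turned to 0.14 for Car8, 0.30 for Ppp1r17, 2.07 for Cbln1, 0.0064 for Cbln3, 0.042 for En2, 0.30 for Zic1 and 0.38 for Zic2 for the interaction. Under the summed-expression covariate the sign between C_W and MS_W turned to -1.11 for Car8, -1.26 for Pcp2, -0.98 for Ppp1r17 and -2.68 for Cbln1. It also turned there to -1.65 for Cbln3, -0.84 for En2, -0.57 for Zic1 and -0.74 for Zic2. It turned to -2.90 for Cbln1 and -1.73 for Zic1 between C_O and MS_O. It turned to 0.29 for Cbln1 between MS_W and MS_O. In edgeR it turned to -1.19 for Cbln1 and -0.52 for Zic1 between C_O and MS_O. In DESeq2 it turned to -1.20 for Cbln1 and -0.53 for Zic1 between C_O and MS_O. With a pseudocount of 0.1 it turned to 0.22 for Ppp1r17 between C_O and MS_O.

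Each library was also left out in turn, which leaves its group with 2 mice that share the pooled spread. The number of genes called between C_W and MS_W ran from 0 to 4 (without MS_W75). It was 1 without C_O72, MS_O13, MS_O46 or MS_W31. The number of genes called between MS_W and MS_O ran from 0 (without MS_O46 or MS_W95) to 2 (without MS_O13 or MS_W31). For the interaction it ran from 0 (without C_O72 or MS_O46) to 1. In these fits 3.49% to 5.63%, 2.16% to 4.38% and 3.4% to 7.03% of all tested genes were called. The signs that changed did so without C_O72 or MS_W95, apart from the following. Those of Cbln1 and Zic1 between C_O and MS_O changed instead without C_O15 or C_O30, and that of Cbln1 also without MS_O78. That of Itpr1 between C_W and C_O changed without C_O72 and also without C_W64. The log2FC ran from -0.23 to 3.00 for Car8, from -0.40 to 0.65 for Itpr1, from -0.30 to 2.65 for Cbln1 and from -0.014 to 2.20 for En2 between C_W and MS_W. The log2FC ran from -1.18 to 0.96 for Ppp1r17, from -0.82 to 1.77 for Cbln1, from -2.87 to 0.049 for Cbln3, from -1.38 to 0.028 for En2, from -0.32 to 1.26 for Zic1 and from -0.64 to 0.65 for Zic2 between C_O and MS_O. The log2FC ran from -0.053 to 2.06 for Car8, from -0.22 to 0.068 for Itpr1, from -0.26 to 1.88 for Ppp1r17, from -0.93 to 1.66 for Cbln1, from -0.064 to 2.85 for Cbln3, from -0.048 to 1.36 for En2, from -0.29 to 1.29 for Zic1 and from -0.19 to 1.10 for Zic2 between C_W and C_O. The log2FC ran from -3.14 to 0.089 for Car8, from -2.79 to 0.046 for Ppp1r17, from -1.81 to 1.14 for Cbln1, from -1.69 to 0.0092 for Zic1 and from -1.65 to 0.19 for Zic2 between MS_W and MS_O. The log2FC ran from -2.38 to 0.57 for Cbln1 for the interaction. FPKM is a share of each library, so a large gain of some genes lowers the rest. Genes at the level of Pcp2, Cbln3 and En2 in 10 of the libraries rest on 9 to 70 estimated counts, which limits any difference between groups there.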

Other observations

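The FPKM of a gene divided by that of another gene of the same library was compared between C_O72, MS_W95 and the other 10 libraries for 8 pairs. Pcp2 divided by Cbln3 was 0.513 in C_O72 and 0.515 in MS_W95, inside the range of the other 10 libraries (0.426 to 2.17). En2 divided by Cbln3 was 0.107 and 0.106, against 0.466 to 1.89 in the other 10. Zic2 divided by Zic1 was 0.752 and 0.743, inside the range of the other 10 (0.543 to 1.27). The other 5 ratios were further apart between C_O72 and MS_W95. Ppp1r17 divided by Cbln3 was 0.326 and 0.427, and Pcp2 divided by Car8 was 0.652 and 0.515 (0.0321 to 0.118 in the other 10). Cbln1 divided by Cbln3 was 1.09 and 0.76, against 7.06 to 99.6, and Zic1 divided by Cbln3 was 0.512 and 0.333, against 22.8 to 83.1. Car8 divided by Cbln3 was 0.787 and 1.0, against 7.92 to 21.7. These are values of single libraries, with no test.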
